A study of Mus musculus with 6 samples.

Results

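Genes for 5 families of transcription factor were followed through 6 stromal populations sorted from the mouse omentum. The members were the gene symbols of the deposited tables that spell a forkhead factor (Fox, a letter from a to s, a number), *Gata1* to *Gata6*, a numbered *Tbx*, a numbered *Klf* or a numbered *Sox*. This rule took 99 of 23352 gene symbols, with 44 forkhead, 6 GATA, 13 T-box, 17 KLF and 19 SOX genes, and it used no measured value. Relatives with other symbols, such as the Sp factors, *T* and *Eomes*, were not members and were kept as a separate list.

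All cells came from WT C57BL/6 mice, with no treatment or transgene named. The populations were separated by the leukocyte antigen CD45, by CD140a (the receptor encoded by *Pdgfra*) and by CD105 (endoglin). They were also separated by the activity of aldehyde dehydrogenases (ALDH), a group of enzymes of which some make retinoic acid. P1, P2 and P3 were CD45-CD140a+CD105+ cells with high, intermediate and low ALDH activity, and P1 holds the cells that the study calls Aldh1a2+ fibroblastic reticular cells. P4 and P5 were CD45-CD140a+CD105- cells with intermediate and low ALDH activity. P6 was CD45-CD140a low and ALDH positive. Each population had 1 library and no replicate, so no test was possible, no p-value is given, and the spread between animals is unknown.

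Forkhead factors bind DNA through a winged helix and include the FOXO proteins, which insulin signalling holds out of the nucleus. GATA factors bind the letters they are named after through zinc fingers, T-box factors are named after Brachyury and pattern limbs, heart and body wall, KLF factors bind GC-rich promoters through zinc fingers, and SOX factors bend DNA through a box related to that of the sex-determining gene *Sry*. In the lining of the body cavities, *Gata4*, *Gata5*, *Gata6*, *Tbx18* and *Wt1* are known from the mesothelium and the epicardium, while several forkhead and KLF genes are expressed in most cell types.

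Levels are FPKM, the authors' values scaled to transcript length and to the mapped reads of each library. This scaling does not adjust for RNA composition, so ratios between libraries also depend on the scaling chosen. Scaling by the median of ratios would multiply levels by 1.07 in P1 and by 0.947 in P5. Depth was estimated from the steps between low values at 36.9 M reads in P6 and 53.2 to 61.6 M reads in P1 to P5. Ratios between populations carry 95% intervals computed from these estimated reads, which cover counting error only. The mesothelial markers that were found (11 of 12 listed) summed to 116, 153, 208, 1027, 844 and 3169 FPKM in P1 to P6. *Pdgfra* was at 117 to 154 FPKM in P1 to P5 and at 5.36 in P6. Pancreatic acinar markers, which are no product of stroma, summed to 4.24, 230, 23.2, 1241, 147 and 1813 FPKM. *Pecam1* and *Cdh5*, which define endothelium, stayed under 1 FPKM in every library, at up to 0.992 and 0.343 in P6. The 14 endothelial markers listed summed to 6.92, 9.94, 27.9, 30.2, 39.4 and 120 FPKM in P1 to P6. *Plvap* reached 26.8 FPKM in P5, and *Esam* and *Kdr* reached 62.0 and 46.9 FPKM in P6. A sum of cells gives no level per cell: fewer cells of a type and less RNA per cell cannot be told apart in any value below.

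Of the 99 genes, 46 (46.5%) reached 1 FPKM in at least 1 population, against 55.3% of all gene symbols. A further 32 stayed between 0 and 1 FPKM, and 21 were listed at 0 in every library. A listed 0 can be a failed estimate, since the collagen gene *Col3a1* was listed at 0 in P2 and at 2100 FPKM or more in the other libraries. The KLF family had the largest share of its genes at 1 FPKM or more, 13 of 17, followed by 4 of 6 GATA, 18 of 44 forkhead, 7 of 19 SOX and 4 of 13 T-box genes. Summed over the family, KLF transcripts lay at 958 to 1138 FPKM in all 6 populations. Forkhead genes summed to 115 to 160 FPKM and SOX genes to 26.1 to 44.8 FPKM. The GATA sum was 16.1, 23.7, 42.6, 93.0, 119 and 118 FPKM from P1 to P6, a ratio of 7.34 between P6 and P1. T-box genes summed to 2.62, 7.27, 8.16, 4.15, 4.80 and 13.9 FPKM.

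**Figure D1:**
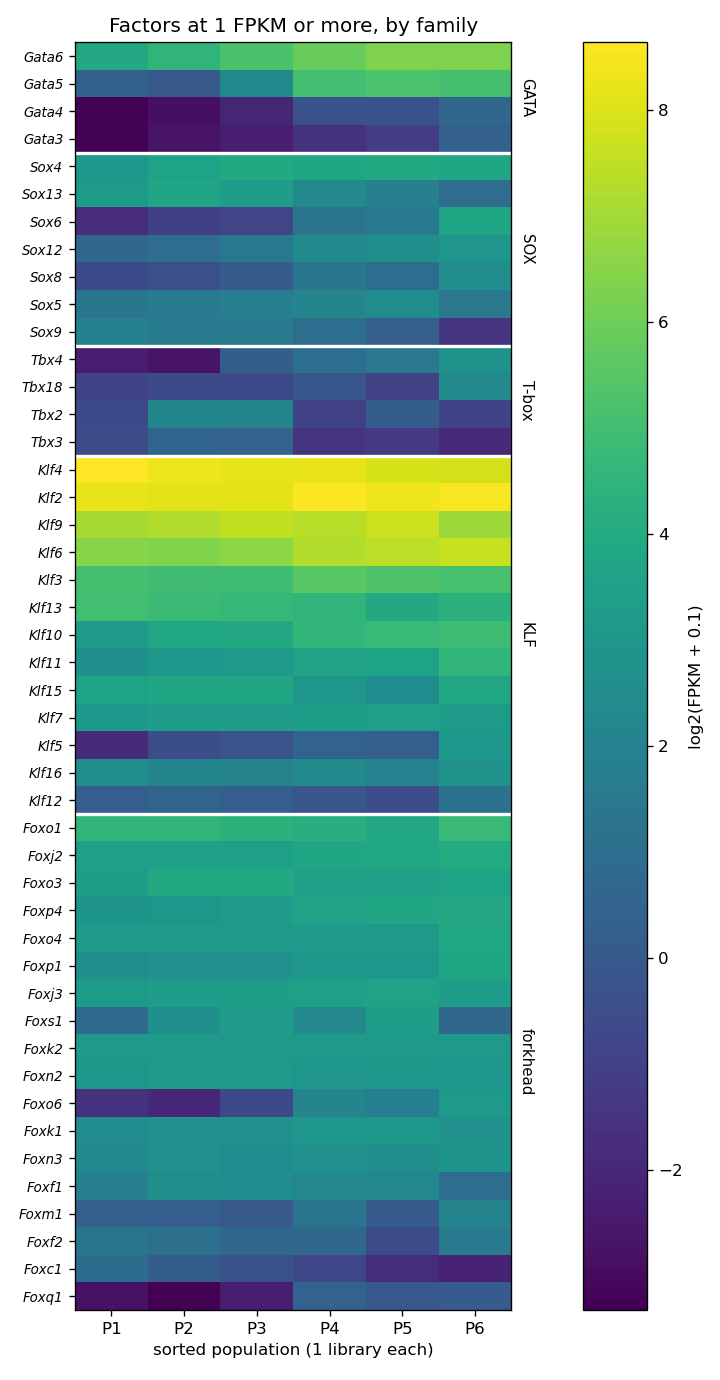
Heat map of the 46 factors at 1 FPKM or more in at least 1 population, one row per gene by family and one column per population, coloured by log2(FPKM + 0.1). *Klf4*, *Klf2*, *Klf9* and *Klf6* are the brightest rows in every column, and *Tbx4*, *Sox6*, *Foxo6*, *Klf5* and *Gata5* are among the rows that change most.

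The families also differed in how evenly their genes were expressed. A gene was called in a comparison when it differed by at least 2 times in every pair of populations compared and was at 1 FPKM or more in each population on the higher side. There were 8 such comparisons, described below by population, and they share libraries. All 4 GATA genes at 1 FPKM or more, all 4 T-box genes and 5 of 7 SOX genes were called in at least 1 of them. Of the KLF genes 1 of 13 was called, and of the forkhead genes 2 of 18. Together this made 16 of 46 members (34.8%), against 19.3% of the 12904 genes at 1 FPKM or more. *Gata3*, *Gata4* and *Tbx18* reached 1 FPKM in P6 alone, so the level rule counted them through the population in which they were high. The highest population was less than 2 times the lowest for 9 of 18 forkhead and 6 of 13 KLF genes, for 1 SOX gene (*Sox4*) and for no GATA or T-box gene. Over all genes at 1 FPKM or more this share was 61.9%.

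P6 held the highest level of 24 of the 46 members (52.2%), against 37.7% of all genes. P5 was highest for 8, P2 for 5, P1 and P4 for 4 each and P3 for 1. In 23 of 46 members (50%) both CD105- populations, P4 and P5, stood above all of P1 to P3, against 38.0% of all genes. In 9 members (19.6%) both stood below, against 17.6% of all genes.

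Promoter windows of 300 bases, 250 before and 50 after a transcript's start, were taken from RefSeq on GRCm38.p6, the patched form of the mm10 build used for the files, and 67 of the 99 members had one. The windows of 4 are printed, all on the minus strand and read 5′ to 3′, because they belong to genes with contrasting patterns. These are *Gata5* (chr2:180334630-180334929), which was high in P4 to P6, *Sox13* (chr1:133424163-133424462), which was high in P1 to P3, *Tbx18* (chr9:87731211-87731510), which was high in P6, and *Klf4* (chr4:55532426-55532725), the member with the highest single level. Capitals mark the GC box GGGCGG, the letters read by Sp and many KLF factors, on either strand.
Gata5: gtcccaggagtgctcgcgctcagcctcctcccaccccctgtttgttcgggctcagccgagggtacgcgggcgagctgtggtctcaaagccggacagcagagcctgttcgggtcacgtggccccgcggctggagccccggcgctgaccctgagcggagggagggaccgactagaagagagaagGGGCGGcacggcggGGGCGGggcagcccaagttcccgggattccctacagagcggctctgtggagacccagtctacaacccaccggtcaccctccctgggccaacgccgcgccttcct
Sox13: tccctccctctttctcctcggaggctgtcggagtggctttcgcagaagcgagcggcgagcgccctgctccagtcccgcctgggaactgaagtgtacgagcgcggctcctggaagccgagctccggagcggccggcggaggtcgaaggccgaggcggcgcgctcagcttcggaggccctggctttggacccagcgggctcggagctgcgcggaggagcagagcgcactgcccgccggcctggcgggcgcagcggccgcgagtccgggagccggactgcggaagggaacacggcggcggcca
Tbx18: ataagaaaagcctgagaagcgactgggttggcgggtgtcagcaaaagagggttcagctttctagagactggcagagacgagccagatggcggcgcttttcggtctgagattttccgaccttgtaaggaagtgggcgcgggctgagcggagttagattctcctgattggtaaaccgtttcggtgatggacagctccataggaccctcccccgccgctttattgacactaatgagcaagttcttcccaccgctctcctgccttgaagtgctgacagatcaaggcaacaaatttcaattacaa
Klf4: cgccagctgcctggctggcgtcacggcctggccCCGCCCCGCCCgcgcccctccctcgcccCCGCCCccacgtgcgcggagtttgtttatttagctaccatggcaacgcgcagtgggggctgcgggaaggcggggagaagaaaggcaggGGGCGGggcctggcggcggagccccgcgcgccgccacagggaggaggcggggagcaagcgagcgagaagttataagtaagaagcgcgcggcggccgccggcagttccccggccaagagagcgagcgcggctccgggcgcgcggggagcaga
The *Klf4* window held 4 GC boxes, of which a pair overlapped by a base, and the *Gata5* window held 2. Neither the *Sox13* nor the *Tbx18* window held these letters. Over all 32851 windows 35.7% held at least 1 GC box, and of the 82 windows of members 54 (65.9%) did. AGATAA or TGATAA, letters that GATA factors bind, were searched on both strands and stood in 9 of 82 member windows (11%), in 18.6% of all windows and in none of those printed. A match is no evidence of binding.

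*Gata6*, which is known from mesothelium, heart and large peritoneal macrophages, was the leading GATA gene in every population. It was at 14.9, 22.6, 37.1, 58.3, 80.3 and 80.9 FPKM in P1 to P6, lowest in the cells of high ALDH activity and equal within counting error in P5 and P6 (ratio 1.01, interval 0.981 to 1.03). P6 over P1 was 5.44 (5.20 to 5.69). *Gata5*, its close relative in endoderm, heart and mesothelium, split the populations more sharply, with 1.22, 0.925, 5.23, 33.7, 37.4 and 34.8 FPKM. P4 to P6 did not overlap with P1 to P3, and P3 held 5.66 times (4.82 to 6.69) the level of P2. *Gata6* thus exceeded *Gata5* by 12.2, 24.4 and 7.08 times in P1, P2 and P3, and by 1.73, 2.15 and 2.33 times in P4, P5 and P6.

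*Gata4*, which acts with *Gata6* in heart and coelomic epithelium, was far lower, at 0.00586, 0.0406, 0.139, 0.705, 0.709 and 1.43 FPKM. *Gata3*, a factor of T helper cells, innate lymphoid cells and several epithelia, was at 0.00620, 0.0537, 0.104, 0.238, 0.349 and 1.17 FPKM. Each was highest in P6, at 2.02 times (1.60 to 2.54) and 3.37 times (2.48 to 4.60) the level of P5, and in P1 each rested on about 1 read. *Gata2*, of blood stem cells and mast cells, was at no more than 0.0812 FPKM in any library, and *Gata1*, the erythroid GATA factor, was listed at 0 in all 6. Erythroid transcripts were present all the same. The 5 erythroid markers found summed to 45.5, 44.1, 139, 55.8, 87.8 and 173 FPKM in P1 to P6. Most of this was *Hba-a1*, at 35.2, 43.8, 130, 51.1, 87.2 and 172 FPKM. *Alas2* reached 1.49 FPKM in P6, and no erythroid marker was called in P6. Their part in the levels of any member was not tested. The T cell markers *Cd3e* and *Cd3d* were at no more than 0.0657 FPKM in every library. The 9 myeloid markers found summed to 23.3, 39.3, 58.5, 31.1, 38.3 and 69.9 FPKM. Most of this was *Lyz2*, at 7.74 to 26.6 FPKM and lowest in P5, and *Cd14*, at 6.35 to 29.7 FPKM. *Cd68* was at 0.858, 1.89, 1.82, 2.20, 2.67 and 6.50 FPKM and *Mrc1* at 0.314, 0.841, 1.30, 2.34, 3.83 and 2.72 FPKM. *Csf1r* and *Cd68* were called higher in P6, and the part of this list in the *Gata6* levels was not tested.

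**Figure D2:**
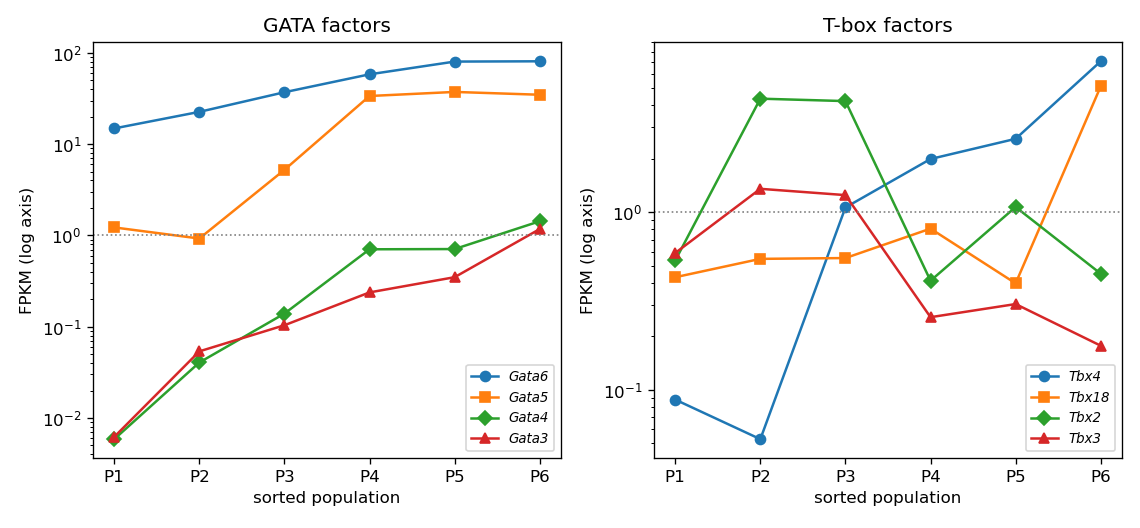
FPKM on a log axis in P1 to P6 for GATA factors (left) and T-box factors (right), 1 library a point, with lines only to join the points of a gene and a dotted line at 1 FPKM. *Gata6* and *Gata5* lie highest in P4 to P6, *Tbx4* and *Tbx18* peak in P6, and *Tbx2* and *Tbx3* peak in P2 and P3.

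Partners and other regulators were taken as a list of 16 genes, of which 15 reached 1 FPKM. The list was not confined to partners of GATA factors and also held *Ctbp1*, *Ctbp2*, *Tead1*, *Yap1*, *Hdac1* and *Hdac2*. *Zfpm1*, which encodes the cofactor FOG1 that binds the GATA zinc finger, was at 4.76, 4.95, 4.04, 12.2, 10.4 and 12.1 FPKM, and its levels in P4 to P6 did not overlap with those in P1 to P3. *Zfpm2*, which encodes FOG2, was at 14.4, 15.0, 15.5, 11.8, 10.8 and 8.38 FPKM, with P4 to P6 below P1 to P3. *Wt1*, the Wilms tumour factor of mesothelium, followed the order of *Gata6*, at 50.3, 79.2, 106, 149, 197 and 211 FPKM. *Lmo2*, a bridging protein that joins GATA factors to other regulators, ran the opposite way from 66.0 FPKM in P1 to 0.374 in P6. *Tcf21*, a helix-loop-helix factor of mesenchyme, fell from 177 to 2.74 FPKM between the same populations. By the rules used for the members, *Lmo2* and *Tcf21* were called lower in P6 (2 of 15, against 3.43% of all genes). *Zfpm1* was called higher in the CD105- populations (1 of 15, against 5.43% of all genes). The other 12 genes of the list at 1 FPKM or more were called in no comparison.

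T-box factors were the scarcest family. *Tbx4*, best known from hind limb and lung mesenchyme, was at 0.0881, 0.0528, 1.06, 1.99, 2.58 and 7.05 FPKM, and P6 held 2.73 times (2.43 to 3.07) the level of P5. *Tbx18*, a factor of epicardium, ureter mesenchyme and pericytes, was at 0.430, 0.546, 0.551, 0.807, 0.397 and 5.10 FPKM. Its P6 level was 6.32 times (5.42 to 7.36) that of P4, and the other five populations lay between 0.397 and 0.807 FPKM. *Tbx2* and *Tbx3*, related repressors of limb, heart and mammary development, showed another pattern. *Tbx2* was at 0.534, 4.35, 4.21, 0.411, 1.07 and 0.450 FPKM, and *Tbx3* at 0.589, 1.35, 1.25, 0.256, 0.304 and 0.177 FPKM. Both were highest in P2 and P3, the CD105+ cells of intermediate and low ALDH activity, and neither reached 1 FPKM in P1.

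*Tbx2* (chr11:85832551-85841948) and *Tbx4* (chr11:85886422-85916097) are neighbours on the plus strand, 44.5 kb apart, yet their order reversed between populations. *Tbx2* exceeded *Tbx4* by 6.06, 82.4 and 3.97 times in P1, P2 and P3, while *Tbx4* exceeded *Tbx2* by 4.84, 2.42 and 15.7 times in P4, P5 and P6. *Tbx5*, 147.9 kb from *Tbx3* on chromosome 5, was at no more than 0.0795 FPKM. *Tbx6*, a factor of the early mesoderm, came closest to the limit without reaching it, at 0.374 to 0.968 FPKM. *Tbx1*, *Tbx5*, *Tbx15*, *Tbx20* and *Tbx21*, which encodes the T-bet of T helper and natural killer cells, were at no more than 0.132 FPKM, and *Tbx10*, *Tbx19* and *Tbx22* were listed at 0 throughout. Of the relatives, *T*, *Tbr1* and *Eomes* stayed at or below 0.0374 FPKM, and *Mga*, which carries a T-box beside a MAX-binding domain, was at 4.78 to 8.51 FPKM.

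Among SOX genes the group D factors, which lack a transactivation domain and partner each other, went in different directions. *Sox6*, known from cartilage, neurons and erythroid cells, was at 0.187, 0.388, 0.460, 2.36, 2.98 and 13.1 FPKM, and P6 held 4.38 times (4.13 to 4.64) the level of P5. *Sox13*, which also acts in gamma delta T cells, was at 8.97, 13.6, 9.98, 4.77, 3.64 and 1.85 FPKM. *Sox5* lay between 2.49 and 5.62 FPKM with its highest level in P5. The ratio of *Sox13* to *Sox6* was 47.9, 35.1, 21.7, 2.02, 1.22 and 0.142 from P1 to P6, so *Sox13* exceeded *Sox6* in P1 to P5 and *Sox6* exceeded *Sox13* in P6.

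The group E factors also reversed their order, but between the CD105+ and the CD105- populations. *Sox9*, a master factor of cartilage that also marks many progenitors, was at 3.77, 3.06, 3.03, 1.87, 1.11 and 0.247 FPKM. *Sox8*, its close paralogue, was at 0.548, 0.665, 0.983, 2.45, 1.88 and 5.68 FPKM. *Sox9* thus exceeded *Sox8* by 6.88, 4.60 and 3.09 times in P1, P2 and P3, and *Sox8* exceeded *Sox9* by 1.31, 1.68 and 23.0 times in P4, P5 and P6. The P6 level of *Sox8* was 2.32 times (2.04 to 2.64) that of P4, and the lowest of the other levels of *Sox9*, in P5, was 4.52 times (3.17 to 6.55) that of P6. *Sox10*, the group E factor of Schwann cells and melanocytes, was listed at 0 in every library. Among the called members, annotated genes on the opposite strand overlap *Sox6*, *Sox8*, *Gata3*, *Gata5*, *Gata6*, *Tbx3* and *Tbx18*. Reads of such a pair cannot be told apart where strand was not counted.

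**Figure D3:**
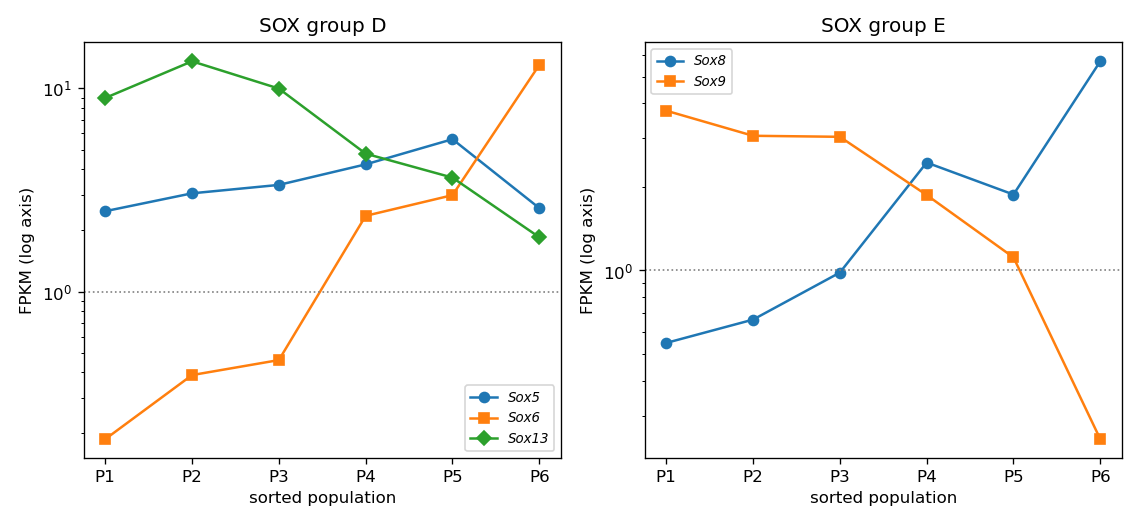
FPKM on a log axis in P1 to P6 for SOX group D (left) and group E (right), 1 library a point, with lines only to join the points of a gene and a dotted line at 1 FPKM. *Sox13* and *Sox9* are lowest in P6 while *Sox6* and *Sox8* are highest there, so that the curves cross.

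Of the group C factors, *Sox4*, which acts in B cell and heart development, was the most even SOX gene, at 8.23, 12.0, 15.2, 12.9, 15.2 and 13.5 FPKM. *Sox12*, its weaker relative, was at 1.43, 1.86, 2.76, 5.16, 6.10 and 7.34 FPKM, and P6 over P1 was 5.13 (4.53 to 5.82). *Sox11*, the remaining member of that group, was at no more than 0.0589 FPKM. The group F factors of endothelium, *Sox7*, *Sox17* and *Sox18*, were at no more than 0.222, 0.0731 and 0.924 FPKM. *Sox15* and *Sox30* stayed at or below 0.0793 FPKM, and *Sox1*, *Sox2*, *Sox3*, *Sox14* and *Sox21*, factors of neural and stem cells, were listed at 0 throughout.

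A few KLF genes carried most of the family's signal, and 6 of the 13 at 1 FPKM or more varied by less than 2 times between populations. *Klf4*, a factor of skin barrier, monocytes and pluripotent cells, was at 398, 326, 294, 304, 238 and 234 FPKM. *Klf2*, a factor of endothelium and resting lymphocytes that responds to shear stress, was at 303, 285, 279, 385, 324 and 368 FPKM. *Klf4* was thus ahead of *Klf2* in the CD105+ populations, by 1.31, 1.14 and 1.06 times in P1, P2 and P3, and *Klf2* ahead of *Klf4* by 1.27, 1.36 and 1.57 times in P4, P5 and P6. *Klf6*, an injury-responsive gene, was at 90.5, 81.4, 97.7, 152, 174 and 197 FPKM, a ratio of 2.17 (2.13 to 2.21) between P6 and P1. *Klf9*, a target of glucocorticoid and thyroid hormone, was at 131, 154, 184, 166, 212 and 118 FPKM and highest in P5. Each of these 4 genes stood above every other member in every population.

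*Klf10* and *Klf11*, which TGF-β induces, were both lowest in P1 and highest in P6, *Klf10* at 9.63, 13.6, 14.7, 24.2, 26.1 and 30.3 FPKM and *Klf11* at 6.36, 8.09, 8.37, 11.8, 12.2 and 23.2 FPKM. *Klf11* was just outside the limit for P6, at 1.89 times (1.80 to 1.99) the level of P5. *Klf15*, a regulator of amino acid and glucose metabolism, was lowest in the CD105- populations, at 12.0, 12.9, 12.8, 7.87, 5.56 and 14.0 FPKM. *Klf13* was at 32.8, 28.6, 25.0, 22.7, 15.4 and 20.6 FPKM, and *Klf3*, a repressor that recruits CTBP, at 30.5 to 46.3 FPKM. *Klf7* lay at 8.11 to 10.6 FPKM and *Klf16* at 3.80 to 6.96 FPKM.

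*Klf5*, a factor of gut crypt and other epithelia and of fat cell formation, was the only KLF gene called in any comparison. It was at 0.172, 0.637, 0.735, 1.30, 1.07 and 8.28 FPKM, and P6 held 6.38 times (5.54 to 7.40) the level of P4. *Klf12*, a repressor, was also highest in P6, at 2.12 FPKM against 0.620 to 1.35 in the others. *Klf1*, the erythroid factor, was at no more than 0.548 FPKM, and *Klf8*, *Klf14* and *Klf17* were at no more than 0.275 FPKM. Of the related Sp genes, *Sp5*, a target of WNT signalling, was at 3.26 FPKM in P6 and at 0 to 0.247 FPKM elsewhere. *Sp1* lay at 13.8 to 19.7 FPKM and *Sp3* at 29.8 to 47.0 FPKM in all 6 populations.

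**Figure D4:**
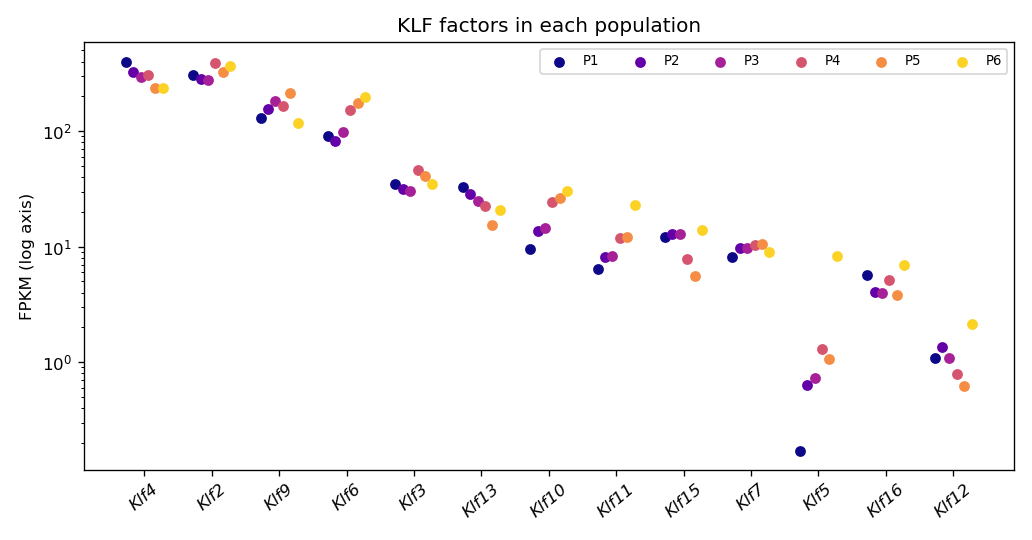
FPKM on a log axis of the 13 KLF genes at 1 FPKM or more, 6 points a gene for P1 to P6 from left to right, 1 library a point. *Klf4*, *Klf2*, *Klf9* and *Klf6* lie above 80 FPKM in every population, and *Klf5* spans the widest range.

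*Klf2*, *Klf4*, *Klf6* and *Klf10* belong to the genes that cells can switch on within minutes to hours of a stimulus, tissue digestion included. A list of 14 other immediate-early genes summed to 11216, 11645, 11911, 10532, 10690 and 11464 FPKM in P1 to P6. *Fos* was at 1761 to 2317 FPKM and *Egr1* at 998 to 1143 FPKM. In this list *Egr2* was called higher in the CD105+ and *Ier3* in the CD105- populations, and no gene was called in P6. Their part in the KLF levels was not tested.

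The forkhead family was led by *Foxo1*, an effector of insulin signalling, at 23.6, 24.4, 20.6, 18.3, 13.7 and 26.5 FPKM, except in P5, where *Foxj2* was ahead at 14.0 FPKM. *Foxo3* lay at 10.4 to 15.5 FPKM and *Foxo4* at 8.64 to 14.4 FPKM with its peak in P6. *Foxo6*, a FOXO protein that shuttles poorly out of the nucleus, departed from its relatives, at 0.233, 0.160, 0.517, 4.30, 3.53 and 8.94 FPKM. Its P6 level was 2.08 times (1.87 to 2.31) that of P4, and its level in P1 to P3 did not overlap with that in P4 to P6. *Foxo1* exceeded *Foxo6* by 101 times in P1 and by 2.97 times in P6.

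Another forkhead gene with a pattern of its own was *Foxs1*, known from pericytes and sensory neurons. It was at 1.60, 6.23, 9.39, 4.92, 9.96 and 1.44 FPKM. It was higher in the cells of low than of intermediate ALDH activity on both sides of the CD105 gate, by 1.51 times (1.33 to 1.71) in P3 over P2 and by 2.02 times (1.77 to 2.32) in P5 over P4. P1 and P6 were the lowest and lay within counting error of each other (ratio 1.11, interval 0.799 to 1.57). Of 10 mural markers, *Kcnj8* and *Abcc9*, the potassium channel subunits of pericytes, were likewise lowest in P1 and P6, at 3.32, 15.2, 19.3, 18.4, 29.9 and 5.43 FPKM and at 7.77, 25.3, 29.8, 8.65, 21.7 and 4.70 FPKM. *Des* was also lowest in P1 and P6, at 57.2, 130, 198, 117, 191 and 37.1 FPKM. The other mural markers of the list did not share this order. *Acta2*, *Cspg4* and *Mcam* were called higher in P6, and *Acta2* was at 0.655, 1.90, 4.32, 7.06, 10.4 and 35.0 FPKM. The mural list as a whole summed to 74.0, 184, 294, 210, 346 and 106 FPKM, and its part in the *Foxs1* levels was not tested.

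*Foxf1* and *Foxf2*, which the hedgehog pathway controls in gut mesenchyme, differed from each other. *Foxf1* was at 3.54, 6.19, 5.46, 4.59, 4.65 and 1.91 FPKM, lowest in P6, and the lowest of the other levels was 1.86 times (1.54 to 2.24) that of P6. *Foxf2* was at 2.38, 2.05, 1.57, 1.48, 0.568 and 2.91 FPKM, highest in P6. *Foxf2* lies within 200 kb of *Foxq1* and *Foxc1* on chromosome 13, with gaps of 64.8 and 175.2 kb, and each of these neighbours had its own order. *Foxc1*, a factor of vessel and skull mesenchyme, was at 1.76, 1.07, 0.695, 0.481, 0.192 and 0.121 FPKM, and P1 held 1.65 times (1.44 to 1.88) the level of P2. *Foxq1* was at 0.0503 FPKM in P1, listed at 0 in P2, and at 0.101, 1.28, 0.901 and 0.986 FPKM in P3 to P6.

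*Foxk2*, *Foxn2*, *Foxj3* and *Foxn3* varied by 1.07, 1.22, 1.30 and 1.42 times between their highest and lowest populations. *Foxp4* and *Foxp1*, repressors of lung and lymphocyte development, were 2.03 times (1.90 to 2.18) and 2.21 times (2.09 to 2.33) higher in P6 than in P1. *Foxk1* lay at 5.52 to 8.21 FPKM and *Foxj2* at 10.7 to 16.3 FPKM. *Foxm1*, which drives genes of mitosis, was at 1.11, 1.09, 0.917, 2.35, 0.998 and 3.96 FPKM, highest in P6 and P4. *Foxj1*, of ciliated cells, and *Foxp2* peaked in P6 at 0.796 and 0.670 FPKM. The other 13 forkhead genes with any signal, among them *Foxc2*, *Foxa2* and the regulatory T cell gene *Foxp3*, stayed at or below 0.183 FPKM, with *Foxp3* at no more than 0.0278. The remaining 11 were listed at 0.

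Taken by population, P6 was compared with each of P1 to P5. In P6, 8 of 46 members (17.4%) were at least 2 times higher than in each of the other five, against 6.45% of all genes. In descending order of the ratio to the nearest population these were *Klf5*, *Tbx18*, *Sox6*, *Gata3*, *Tbx4*, *Sox8*, *Foxo6* and *Gata4*. Their ratios ran from 6.38 to 2.02, and the intervals of *Foxo6* and *Gata4* reached below 2. With 1 FPKM added to every value, 4 remained called, *Klf5*, *Sox6*, *Tbx18* and *Tbx4*. *Sox9* was the only member at least 2 times lower in P6 than in each of the others (1 of 46, 2.17%, against 3.43% of all genes). After division by *Gapdh* it was not called, because its scaled level in P5 fell under 1 FPKM. *Sox13* lay just outside, at 1.97 times (1.70 to 2.28) the P6 level in P5. Of the markers at 1 FPKM or more in some population, 9 of 10 mesothelial, 5 of 8 adipocyte, 3 of 5 endothelial, 3 of 8 mural, 2 of 5 myeloid and 2 of 4 Schwann cell markers were called higher in P6 by the same rule. The mural and Schwann cell lists went both ways, with *Notch3* and *S100b* called lower in P6. *S100b* was at 10.3 FPKM in P1 and 0.0185 in P6. Of 8 fibroblast markers, 3 were called lower in P6, *Pdgfra*, *Lum* and *Dpt*. *Adipoq*, an adipocyte hormone, was at 14.7 FPKM in P6 against 0.785 or less elsewhere. Their part in the P6 levels of these factors was not tested.

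The CD105 gate was compared at both levels of ALDH activity, P4 with P2 and P5 with P3. In the CD105- populations 6 of 43 members (14.0%) were at least 2 times higher at both levels, against 5.43% of all genes. *Gata5* differed by 36.4 times (31.4 to 42.6) in P4 over P2 and 7.14 times (6.67 to 7.64) in P5 over P3, the highest ratio of the 6 at low ALDH activity. *Tbx4* differed by 37.7 times (19.4 to 76.1) and 2.43 times (2.05 to 2.89), with a wide interval because P2 held about 10 reads. *Foxo6* differed by 26.9 times (17.7 to 41.9) and 6.84 times (5.40 to 8.90), and *Sox6* by 6.08 times (5.23 to 7.09) and 6.49 times (5.64 to 7.46). The smallest differences were those of *Sox12*, 2.77 and 2.21 times, and *Gata6*, 2.58 and 2.17 times. *Sox8* was just outside, at 3.68 times (2.97 to 4.55) and 1.91 times (1.58 to 2.31).

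*Gapdh* itself was at 214 to 224 FPKM in P1 to P3 and at 302 to 326 FPKM in P4 and P5. Division by it moved the CD105- calls to 3 members, *Foxo6*, *Gata5* and *Sox6*, with *Gata6* at 1.86 and 1.49 times. In the other direction 3 of 43 members (6.98%) were at least 2 times higher in the CD105+ populations, against 3.71% of all genes. *Tbx2* differed by 10.6 times (8.47 to 13.5) in P2 over P4 and by 3.94 times (3.41 to 4.59) in P3 over P5. *Tbx3* differed by 5.28 times (4.08 to 6.86) and 4.10 times (3.23 to 5.20), and *Sox13* by 2.85 times (2.65 to 3.07) and 2.74 times (2.53 to 2.98). Division by *Gapdh* kept these 3 and added *Klf12*, *Klf15*, *Sox9* and *Tbx6*. The mesothelial list moved with this gate, 7 of 10 markers at 1 FPKM or more being called higher in the CD105- populations, and so did all 10 acinar markers. Their part was not tested.

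**Figure D5:**
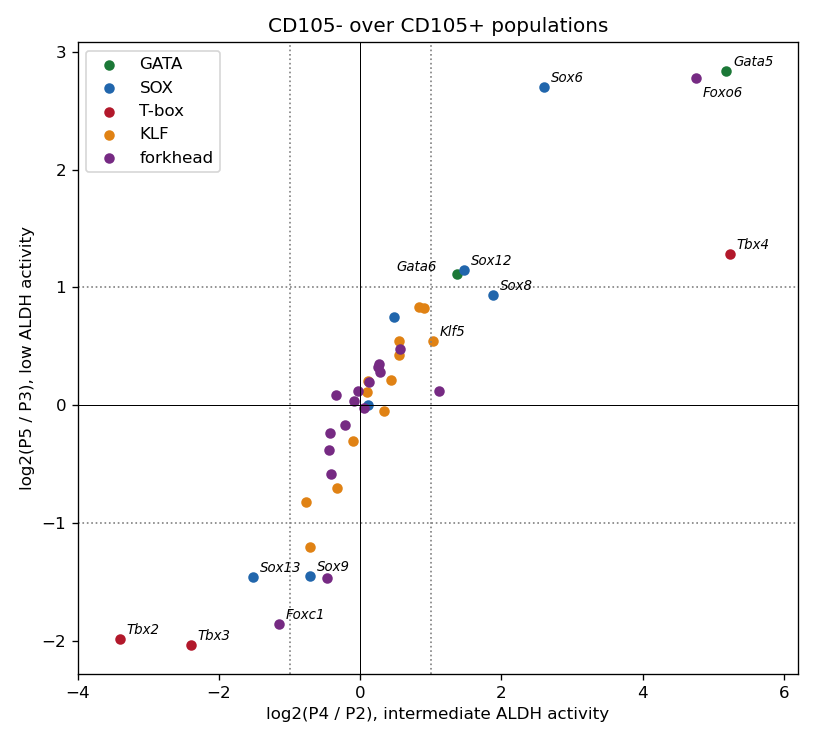
Ratio of CD105- to CD105+ populations on log2 axes for 42 members, at intermediate ALDH activity (P4 over P2, horizontal) and at low ALDH activity (P5 over P3, vertical), coloured by family. Dotted lines mark a difference of 2 times; *Gata5*, *Foxo6*, *Sox6* and *Tbx4* lie far to the upper right and *Tbx2* and *Tbx3* to the lower left, and *Foxq1* is left out because it was listed at 0 in P2.

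P1 and P2 differ in ALDH activity within the CD105+ cells. No member of 37 was at least 2 times higher in P1, where 1.05% of all genes were. The nearest was *Foxc1* at 1.65 times. In P2, 3 of 37 members (8.11%) were at least 2 times higher than in P1, against 4.5% of all genes. These were *Tbx2* at 8.14 times (6.62 to 10.2), *Foxs1* at 3.89 times (3.10 to 4.90) and *Tbx3* at 2.30 times (1.90 to 2.79). *Gata6* was 1.52 times (1.44 to 1.60) and *Sox13* 1.52 times (1.43 to 1.61) higher in P2. Of 6 mural markers at 1 FPKM or more in P1 or P2, 5 were called higher in P2 than in P1, and so were all 10 acinar markers, whose part was not tested.

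Intermediate and low ALDH activity were compared on both sides of the CD105 gate, P2 with P3 and P4 with P5. None of 43 members was at least 2 times higher at intermediate activity in both pairs, against 0.484% of all genes, and none at low activity, against 0.524%. *Foxs1* came nearest for low activity. Members could differ in one pair alone. *Tbx4* was 20.1 times (10.3 to 40.9) and *Gata5* 5.66 times higher in P3 than in P2, while between P4 and P5 *Gata5* differed little, with 33.7 and 37.4 FPKM. *Foxf2* and *Foxm1* were 2.61 times (1.97 to 3.43) and 2.35 times (2.03 to 2.72) higher in P4 than in P5. Of the marker lists, all 10 acinar markers were called higher at intermediate activity in both pairs, and *Plvap* and *Ngfr* at low activity. The part of these markers was not tested. No member turned direction by 2 times or more between the pairs of either gate.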

How the data were processed

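RNA from 6 sorted omental stromal populations, 1 library each, was sequenced by the authors as single-end reads of 76 nt from NEBNext Ultra libraries. The authors deposited FPKM values. The submitters' processing notes name TopHat2 2.0.7, Cufflinks 2.1.1 and mm10. The annotation, counting by strand and any pooling of mice are not given in the sources used here. An annotated gene on the opposite strand overlaps 21 of the 46 members at 1 FPKM or more (GENCODE M21).

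Rows that repeated a symbol (495 a library) were summed. Reads were estimated from FPKM steps of genes with 1 transcript of at least 800 nt, less a fragment length of 200 nt. Of values of up to 10 reads, 53.4% to 59.9% lay no further than 0.05 from an integer, where chance would give 10%. These counts were too approximate for a count test. Reads of a member were computed from its longest coding transcript, whichever transcript the cells used. Intervals come from the exact conditional binomial (Clopper-Pearson) method on the same estimated counts, so their widths are approximate too. Rules were run on simulated reads with counting error only and some genes raised in P6. No rise in another population and no spread between animals was simulated. Family medians used a pseudocount of 0.1 FPKM.

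Members and gene lists were chosen with earlier results of these data known. Named members were those at 5 FPKM or more, those called, and those under 1 FPKM once per family. *Foxf2*, *Foxc1*, *Foxq1*, *Foxm1* and *Klf12* lie outside this rule and were named after their values were seen. No proteins are printed, since no protein table was used here. Software was scipy 1.17.1, pandas 2.3.3 and numpy 2.4.6 under Python 3.11.15, with matplotlib 3.10.9 for plots.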

Additional observations from a re-analysis of the deposited data

How the results depend on the processing

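No paired analysis was possible because no group had a second library. No call reversed direction under any alternative run. Of 160 single ratios and medians recomputed, 128 stayed within the counting interval (medians within 0.1) and 32 did not, 19 of them under division by *Gapdh*, which was itself 1.39 to 1.46 times higher in P4 and P5 than in P2 and P3. The counts below moved by over 1.5 times.

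With a fold of 1.5 the members called higher in P6 were 13, lower in P6 3, higher in the CD105+ populations 6, in P1 over P2 1 (*Foxc1*), in P2 over P1 6 and at low ALDH activity 1 (*Foxs1*). With a fold of 3 the P6 calls were 4 and the CD105- calls 3. With a minimum of 5 FPKM the members lower in P6 were 0, the CD105+ calls 1, the CD105- calls 3 and the P2 over P1 calls 1. With a pseudocount of 1 the calls higher in P6 were 4 and lower 0. Division by *Gapdh* gave 7 CD105+ and 3 CD105- calls, and put *Foxf1* in place of *Sox9* as the 1 member lower in P6. Scaling by the median of ratios gave 2 members lower in P6 and quantile normalization 3. Without P1 in the comparison 3 members were lower in P6 (*Foxf1* and *Foxs1* added), and without P5 2 (*Sox13* added). The cause of these shifts was not tested. With full in place of effective transcript length the estimated depth was 33.0 to 55.3 M reads a library. At the depth reached, low levels can rest on a few reads. These were about 3 for *Sox15* at 0.0691 FPKM in P2 and about 5 for *Foxc2* at 0.0535 FPKM in P6. No value shows how animals differ.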

Other observations

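For members whose mean level reached 1 FPKM, the family median of log2 of P6 over the average of P1 to P5 was 2.51 for 3 T-box, 1.03 for 2 GATA, 0.45 for 13 KLF, 0.33 for 16 forkhead and 0.08 for 7 SOX genes, against 0.07 for 12053 genes in all. *Tbx18*, *Klf5* and *Klf12* reached this mean only with P6 counted, so the filter favoured genes high in P6. In P6 they were at 5.10, 8.28 and 2.12 FPKM, against no more than 0.807, 1.30 and 1.35 in P1 to P5. With every member kept, genes near 0 included, the medians were 1.03 for 6 GATA, 0.45 for 17 KLF and 0 for T-box, forkhead and SOX genes. Within the CD105+ gate, 19 of 46 members were ordered P1 below P2 below P3 (41.3%, all genes 36.6%), among them *Gata6*, *Gata4*, *Gata3*, *Sox6*, *Sox8* and *Sox12*, and 11 were in the reverse order (23.9%, all genes 19.0%), among them *Klf4*, *Klf13*, *Sox9* and *Foxc1*.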
